A study of Mus musculus with 7 samples.

Results

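The genes described here encode the fat-digesting enzymes of the exocrine pancreas. They are Pnlip (pancreatic lipase), its relatives Pnliprp1 and Pnliprp2, Cel (carboxyl ester lipase, also called bile salt-stimulated lipase) and Clps (colipase). A peak of an ATAC-seq list was assigned to a gene when its summit had that gene as the nearest protein-coding gene span of GRCm38 within 50 kb. This rule found 210 of the 580456 peaks in the 4 lists used, 74 of them in untreated epithelium, 15 on day 1, 36 on day 7 and 85 on day 28. Each peak of a list is called a region below, and its fold is the authors' ratio of pileup to background at the summit.

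ATAC-seq marks open chromatin by the insertion of sequencing adapters by the Tn5 transposase. It was applied to epithelial cells purified from the digested pancreas of C57BL/6J wild-type mice. The 4 groups were mice harvested 1, 7 or 28 days after caerulein and untreated mice. Caerulein is a cholecystokinin analogue that overstimulates acinar cells and provokes a transient acute pancreatitis. Each group had 1 list from 1 library, the age of the mice is not given in the labels, and 3 libraries of DCLK1-positive cells from Dclk1-DTR-ZsGreen mice were not analysed here. With 1 library per group there is no replicate check and no test, and every difference is a difference between libraries. In epithelium purified in bulk, fewer acinar cells in a library and less open chromatin per acinar cell cannot be told apart.

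Pancreatic acinar cells make digestive enzymes in bulk, and the genes of these enzymes are held open by acinar transcription factors, chief among them the PTF1 complex of PTF1A and RBPJL, and NR5A2. Pancreatic lipase splits dietary triglycerides in the gut, and colipase anchors it to fat droplets that are coated with bile salts. PNLIPRP2 also acts on galactolipids and phospholipids, CEL acts on cholesteryl esters and other esters, and PNLIPRP1 has little lipase activity of its own. During pancreatitis acinar cells are known to reduce the expression of their enzymes and to take on duct-like features.

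Pnlip, Pnliprp1 and Pnliprp2 lie next to each other on chromosome 19, all on the plus strand, with spans of 58670365 to 58681799, 58728887 to 58744169 and 58759723 to 58777534. Cel lies on the minus strand of chromosome 2, from 28555819 to 28563403, and Clps on chromosome 17, from 28558210 to 28560766. All coordinates are on GRCm38. RefSeq promoter windows on GRCm38.p6, running from 250 bases before to 50 after the annotated start, matched 4 of the 5 genes. They are shown because the windows of these genes differed in whether they stayed accessible, and because they hold different short motifs. Capitals mark matches, on either strand, to an E-box bound by PTF1A (CACCTG), the short site of RBPJ factors (TTTCCC), the NR5A2 motif (CAAGGTCA), the AP-1 motif (TGANTCA) and a TATA box (TATAAA).
Pnlip, chr19:58670115-58670414, plus strand: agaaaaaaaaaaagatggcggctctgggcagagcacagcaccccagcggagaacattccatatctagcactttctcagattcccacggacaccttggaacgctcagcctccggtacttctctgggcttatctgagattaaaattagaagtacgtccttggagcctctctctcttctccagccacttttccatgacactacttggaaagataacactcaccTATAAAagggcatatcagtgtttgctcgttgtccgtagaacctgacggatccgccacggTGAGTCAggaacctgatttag
Pnliprp1, chr19:58728637-58728936, plus strand: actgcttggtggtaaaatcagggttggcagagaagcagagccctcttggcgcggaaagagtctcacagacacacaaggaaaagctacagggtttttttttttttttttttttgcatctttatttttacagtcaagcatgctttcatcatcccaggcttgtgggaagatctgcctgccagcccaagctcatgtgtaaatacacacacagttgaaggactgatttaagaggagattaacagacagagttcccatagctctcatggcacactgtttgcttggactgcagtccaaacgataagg
Pnliprp2, chr19:58759473-58759772, plus strand: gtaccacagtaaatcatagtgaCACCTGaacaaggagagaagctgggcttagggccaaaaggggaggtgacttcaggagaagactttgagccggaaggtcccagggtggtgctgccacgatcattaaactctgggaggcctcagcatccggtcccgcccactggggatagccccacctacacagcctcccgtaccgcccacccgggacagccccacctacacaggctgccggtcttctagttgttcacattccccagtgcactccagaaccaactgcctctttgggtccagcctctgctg
Cel, chr2:28563354-28563653, minus strand: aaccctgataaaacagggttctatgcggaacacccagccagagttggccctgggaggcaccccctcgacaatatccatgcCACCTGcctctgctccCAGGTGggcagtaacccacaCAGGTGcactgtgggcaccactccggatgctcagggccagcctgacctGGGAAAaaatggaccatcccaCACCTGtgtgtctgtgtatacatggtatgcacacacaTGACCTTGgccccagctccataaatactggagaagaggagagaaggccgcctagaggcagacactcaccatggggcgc

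The Cel window held most of the matches. It had 4 E-boxes, at -170 to -165, -154 to -149, -134 to -129 and -65 to -60 from the start, an RBPJ site at -86 to -81 and an NR5A2 match at -28 to -21. The Pnliprp2 window had 1 E-box, at -228 to -223. The Pnlip window had a TATA box at -30 to -25 and an AP-1 match at 30 to 36, and the Pnliprp1 window had no match. None of the 4 windows held the paired PTF1 site, an E-box followed in the same orientation by the RBPJ site after 3 to 25 bases. Pairs in other orientations were not counted, such as the RBPJ site at -86 to -81 and the E-box at -65 to -60 of the Cel window. Among all 32851 RefSeq promoter windows of the mouse, 20.2% held the E-box, 25.2% the RBPJ site, 1.56% the NR5A2 motif, 7.81% the AP-1 motif, 13.6% the TATA box and 0.271% the paired site. No match overlapped another in these windows. A match of letters is a description of the window and not evidence of binding.

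The lipase genes lost most of their untreated regions on day 1, held fewer and narrower regions on day 7 and were open again on day 28. The 74 untreated regions covered 44.9 kb. The 15 regions of day 1 covered 6.10 kb, the 36 of day 7 covered 11.8 kb and the 85 of day 28 covered 55.7 kb. The widest single region measured 4331 bp in the untreated list, 942 bp on day 1, 883 bp on day 7 and 5982 bp on day 28. Covered length therefore separated day 7 from untreated epithelium more than the number of regions did, with short pieces in place of wide regions. At Clps the day 7 and the untreated lists each held 6 regions, which covered 2.45 kb on day 7 and 6.19 kb in untreated epithelium.

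**Figure D1:**
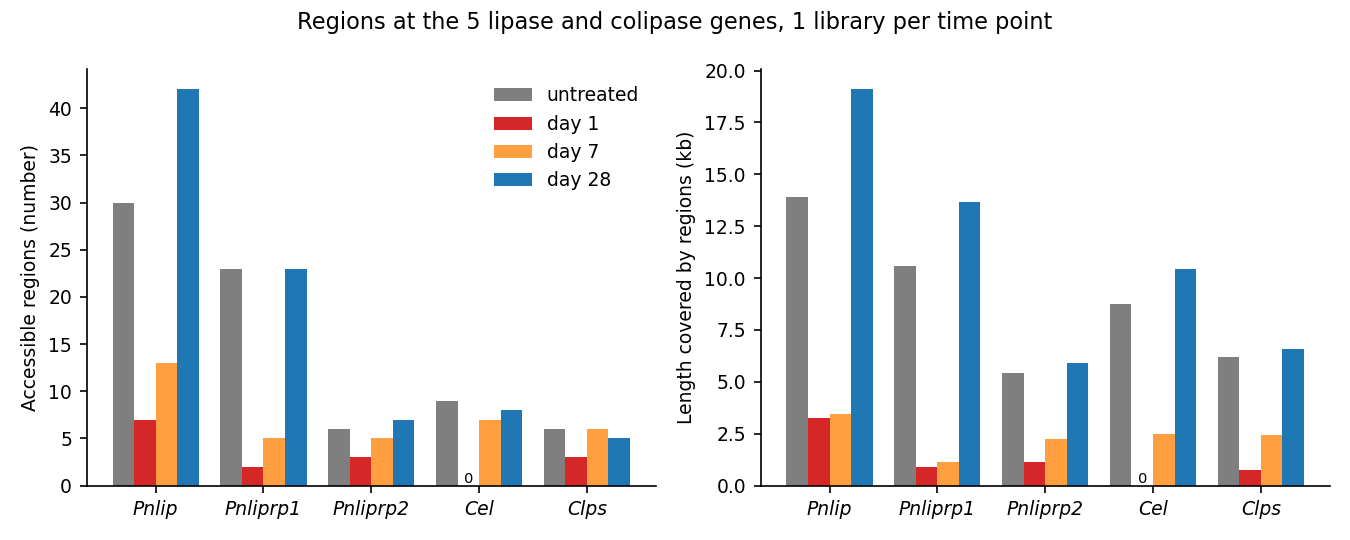
Number of regions (left) and length covered by them in kb (right) at each gene in untreated epithelium and on days 1, 7 and 28. Bars are values of 1 library each. All genes are lowest in covered length on day 1 and highest on day 28, and Cel has 0 regions on day 1.

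An untreated region was counted as lost when no peak of the later list overlapped it by at least 1 bp. On day 1, 63 of the 74 untreated regions were lost, 85.1% (exact binomial 95% interval 75.0 to 92.3, which like all intervals here covers counting error only), against 37.1% of all untreated regions that had a gene within 50 kb. On day 7, 53 of 74 were lost, 71.6% (60.0 to 81.5), against 31.8% of all regions. On day 28, 6 of 74 were lost, 8.11% (3.03 to 16.8), against 26.7% of all regions. The lipase genes thus lay above the background of their lists on days 1 and 7 and below it on day 28. A later region was counted as gained when it overlapped no untreated peak. Gains numbered 2 of 15 regions on day 1 (13.3%, 1.66 to 40.5), 3 of 36 on day 7 (8.33%, 1.75 to 22.5) and 27 of 85 on day 28 (31.8%, 22.1 to 42.8). As a limit of the rule, the untreated region of Pnlip just inside 50 kb lay 49507 bp from the gene with 4.45 fold, and the next one, just outside, 52874 bp with 3.79 fold. The background shares of gained regions were 49.9%, 33.9% and 23.0% on days 1, 7 and 28.

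The lost shares of the lipase genes were read against the same shares of all regions under each other setting too. With peaks of −log10 q of at least 5 the lipase genes had lost 86.6%, 73.1% and 8.96% on days 1, 7 and 28, against 35.0%, 30.1% and 25.1% of all regions. With an overlap of at least 0.5 of the shorter interval they had lost 86.5%, 71.6% and 16.2%, against 38.7%, 33.9% and 29.5%. With links within 10 kb they had lost 86.0%, 71.9% and 8.77%, against 36.8%, 31.9% and 26.4%, and with the nearest gene of any type the same shares, against 37.3%, 31.9% and 26.9%. With a common enrichment floor they had lost 89.2%, 71.6% and 8.11%, against 44.7%, 33.7% and 26.9%. In each of these settings the lipase genes lay above all regions on days 1 and 7 and below them on day 28. Background shares of gained regions on days 1, 7 and 28 were 50.6%, 32.5% and 18.5% with the minimum −log10 q, 51.2%, 35.8% and 25.9% with the longer overlap, 48.6%, 32.7% and 22.8% within 10 kb, 39.1%, 31.0% and 22.6% with the floor and 51.6%, 35.3% and 23.5% with genes of any type.

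The 5 genes kept different counts of their untreated regions on day 1, but the counting intervals of their lost shares overlapped. Cel kept 0 of 9 untreated regions, so its lost share was 100% (66.4 to 100), and the day 1 list held no region at Cel at all. Pnliprp1 kept 1 of 23 and Pnlip 6 of 30, while Pnliprp2 and Clps each kept 2 of 6. By day 7 Cel had 3 of its 9 untreated regions again, Pnlip 10 of 30 and Pnliprp2 3 of 6. Pnliprp1 had 3 of 23, and Clps again 2 of 6. On day 28 Cel held 9 of 9, Clps 6 of 6, Pnlip 28 of 30, Pnliprp1 20 of 23 and Pnliprp2 5 of 6. Of the 63 regions that were missing on day 1, 13 were present on day 7, 20.6% (11.5 to 32.7), and 58 on day 28, 92.1% (82.4 to 97.4). Over all regions with a gene within 50 kb that were missing on day 1, 27.8% (27.4 to 28.2) were present on day 7 and 51.5% (51.0 to 51.9) on day 28. The day 7 share of the lipase genes was near that of all regions, and the day 28 share was above it. Only 5 of the 63 were seen at neither later time.

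The regions lost on day 28 were weak ones. Their fold in the untreated list ran from 3.30 to 4.94, against a range of 2.97 to 53.9 for the 68 that were kept. Strength did not separate the regions on day 1 in the same way. The 63 lost regions then ran from 2.97 to 42.7 fold and the 11 kept ones from 3.62 to 53.9 fold. On day 7 the 53 lost regions ran from 2.97 to 12.7 fold, with a median of 4.28. The 21 kept on day 7 ran from 3.62 to 53.9 fold, with a median of 19.9. Of the 8 lipase gene regions at percentile 90 or higher of fold in the untreated list, 4 had no day 1 peak. Among all linked regions of that strength 4.04% had none. Each of the 8 had a peak on day 7 and again on day 28, where 0.126% and 0% of all regions of that strength were missing.

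Folds were set against each library's own enrichment before they were placed side by side, since enrichment at regions held by all lists differed between the libraries. The source of that difference was not tested. The relative enrichment used below is fold minus 1, divided by the median of that quantity over the regions that all 4 lists held. That median was 7.40 in the untreated library, 16.6 on day 1, 15.1 on day 7 and 11.5 on day 28. A value of 1 is the median strength of these shared regions in a library, with the highest peak taken in each. It is above most peaks of a list. A lipase gene region of 0.978 in the untreated list stood at percentile 72.5 of fold, and 1 of 1.06 on day 1 at percentile 78.5. The lowest value that a list contained was 0.199 in untreated epithelium, 0.0819 on day 1, 0.129 on day 7 and 0.160 on day 28, so a region without a peak lay near or under these levels. The pileups behind the folds were recovered as whole numbers and give the counting intervals.

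Accessibility at the promoter windows differed among the genes in untreated epithelium. Clps has no strand in the gene table used here, so the strongest peak within 1 kb of either end of its span was taken in place of a promoter window, which is a wider search. The start of Pnliprp2 had a relative enrichment of 7.14 (6.38 to 7.97), the region at the high-coordinate end of Clps 6.68 (5.93 to 7.48) and the start of Cel 5.63 (4.95 to 6.37). The start of Pnlip had 1.49 (1.14 to 1.91) and that of Pnliprp1 1.20 (0.887 to 1.58). In this order the intervals of Pnliprp2 and Clps overlapped, as did those of Clps and Cel and those of Pnlip and Pnliprp1, whereas Cel and Pnlip were separated. The peak over the start of Pnlip, the gene of the main fat-digesting enzyme, was therefore weaker than those of Pnliprp2 and Cel.

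Pnliprp2 kept a region over its start in every list. The fold at this region was 53.9 in untreated epithelium, 5.67 on day 1, 19.9 on day 7 and 82.6 on day 28. Relative enrichment was 7.14, 0.281 (0.180 to 0.410), 1.25 (0.968 to 1.58) and 7.10 (6.30 to 7.98) in the same order. The peak covered 267 of the 300 bases of the promoter window on day 1 and all 300 in the other lists. The counting intervals of day 28 and untreated epithelium overlapped, and both stood clear of days 1 and 7. The peak narrowed to 316 bp on day 1 and 480 bp on day 7, against 1980 bp in untreated epithelium, and measured 2154 bp on day 28.

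The start of Cel had no peak on day 1, and its promoter window was covered in the other 3 lists. Fold enrichment was 42.7 in untreated epithelium, 20.4 on day 7 and 42.9 on day 28. Relative enrichment was 5.63, 1.28 (1.00 to 1.62) and 3.64 (3.07 to 4.29). At Cel the fold of day 28 was as high as that of untreated epithelium, while the relative value was lower and the counting intervals did not overlap, so the order of these 2 libraries depends on the scaling.

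At Clps, which encodes the cofactor of pancreatic lipase, the region at the high-coordinate end was present in every list, with its strongest summit between 1100 and 1156 bp beyond the span. The fold of the strongest peak there was 50.4 in untreated epithelium, 4.41 on day 1, 25.0 on day 7 and 75.2 on day 28. Relative enrichment was 6.68, 0.205 (0.118 to 0.321), 1.59 (1.27 to 1.96) and 6.46 (5.70 to 7.30). The merged place at the low-coordinate end had its strongest summits 1322 to 1430 bp beyond the span. It was 27.2 fold in untreated epithelium, 4.57 fold on day 1, 13.7 fold on day 7 and 42.3 fold on day 28. Within 1 kb of that end itself there was no peak on day 1, and the stronger of 2 peaks on day 7 had 5.64 fold.

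The promoter windows of Pnlip and Pnliprp1 had no peak on day 1 or on day 7, and were fully covered in the other 2 lists. The Pnlip start region had 16.5 fold on day 28, against 12.0 fold in untreated epithelium. Its relative enrichment was 1.35 (1.00 to 1.76) on day 28, against 1.49 in untreated epithelium, and the intervals overlapped. At Pnliprp1 the peaks over the window are not like for like. The untreated list had a peak over the start, with its summit at 12 bp and 9.89 fold, and a separate stronger peak with its summit at -955 bp and 20.9 fold. On day 28 a single peak of 18.2 fold spanned both places, with its summit at -858 bp, so no day 28 value was read at the start itself. The merged place had a relative enrichment of 1.49 (1.13 to 1.93) on day 28, against 2.69 (2.22 to 3.23) in untreated epithelium. On that place the day 28 value was lower both as fold and after scaling, and the counting intervals did not overlap. The day 7 list held a peak of 6.45 fold in the same place, with its summit at -755 bp, outside the promoter window, and the day 1 list held none. On day 7 the promoter windows of Pnliprp2 and Cel thus held a peak while those of Pnlip and Pnliprp1 did not. Clps was not judged on such a window. In untreated epithelium the start peaks had 53.9 fold at Pnliprp2 and 42.7 at Cel, against 12.0 at Pnlip and 9.89 at Pnliprp1. No lipase gene region lost on day 7 had more than 12.7 fold in the untreated list. Whether this contrast is more than a difference in strength was not tested.

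**Figure D2:**
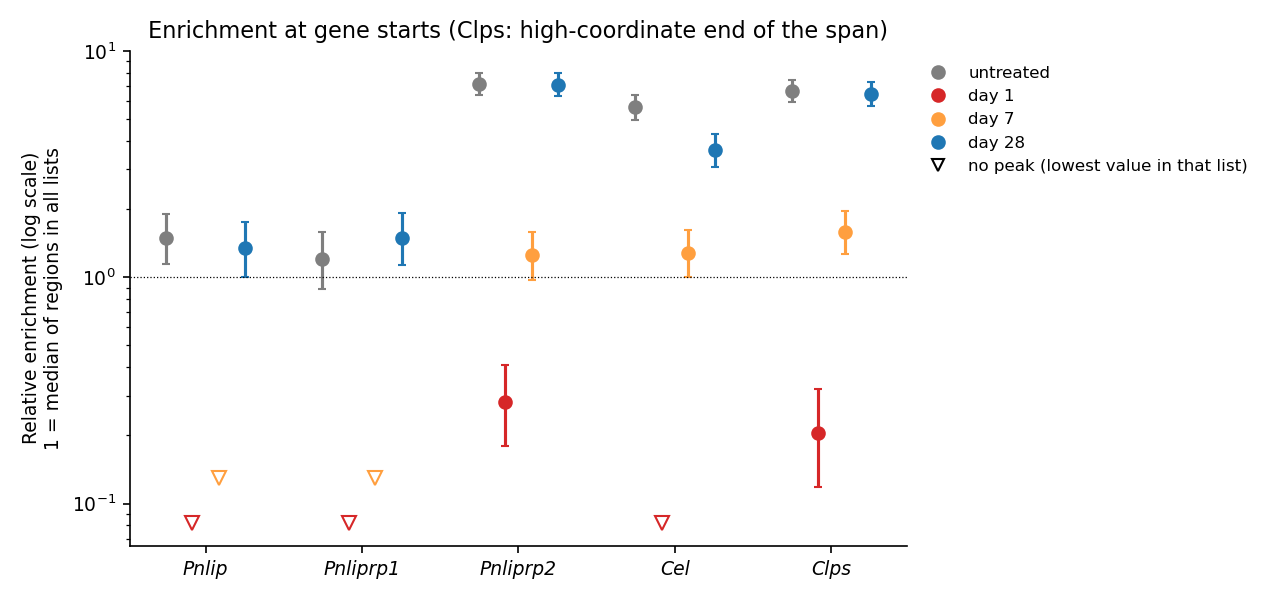
Relative enrichment (log axis) of the strongest peak at each gene start, or at the high-coordinate end of Clps, with 95% counting intervals for 1 library each. Open triangles stand at the lowest value a list contained, where no peak was found. At every gene days 1 and 7 lie below untreated and day 28 or have no peak, and the day 28 peak of Pnliprp1 has its summit at -858 bp.

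The strongest regions assigned to Pnlip lay away from its start. The assignment rests on the nearest-gene rule, which does not show the gene that a region acts on. In the untreated list the highest fold was 42.0, at chr19:58695772-58696746, whose summit was 14603 bp beyond the gene end in the interval between Pnlip and Pnliprp1. The same region had no peak on day 1, 7.52 fold on day 7 and 43.7 fold on day 28. It was also the highest at Pnlip in the day 28 list. Its relative enrichment was 5.54 in untreated epithelium, 0.431 on day 7 and 3.72 on day 28. A further region 3276 bp before the start had 27.8 fold in untreated epithelium, no peak on day 1, 5.91 fold on day 7 and 31.8 fold on day 28. Another, 20123 bp before the start, had 22.1 fold in untreated epithelium, no peak on day 1, 8.86 fold on day 7 and 32.4 fold on day 28, and its summit was at the same base in the day 28 and untreated lists. On day 7 these 3 distal regions were seen while the promoter window was not. In untreated epithelium the peak over that window had 12.0 fold, lower than all 3 of them.

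Pnliprp1, the relative with little activity, was open across its body in the untreated list, with 14 of 23 regions inside the span. Its strongest untreated region was at chr19:58747410-58748000, 3570 bp beyond the gene end, with 34.9 fold, no peak on day 1, 6.72 fold on day 7 and 31.2 fold on day 28. The day 1 list held 2 regions at Pnliprp1, neither inside the gene, and the day 7 list 5, of which 2 were inside. On day 28 there were again 14 inside the span, of 23 in all. Pnliprp2 had a further strong element inside the gene, with a summit 2806 bp after the start and 36.9 fold in untreated epithelium and a single region of 55.6 fold on day 28. It was 2 regions on day 1, of 5.99 fold at 2820 bp and 13.6 fold at 3407 bp, and 2 on day 7, of 12.6 fold at 2796 bp and 14.2 fold at 3396 bp. At Cel a region of 4331 bp over the 3′ part of the gene had 19.9 fold in untreated epithelium and none on day 1. It was broken into short pieces of up to 8.33 fold on day 7, and on day 28 a single region of 5982 bp with 23.8 fold covered it.

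**Figure D3:**
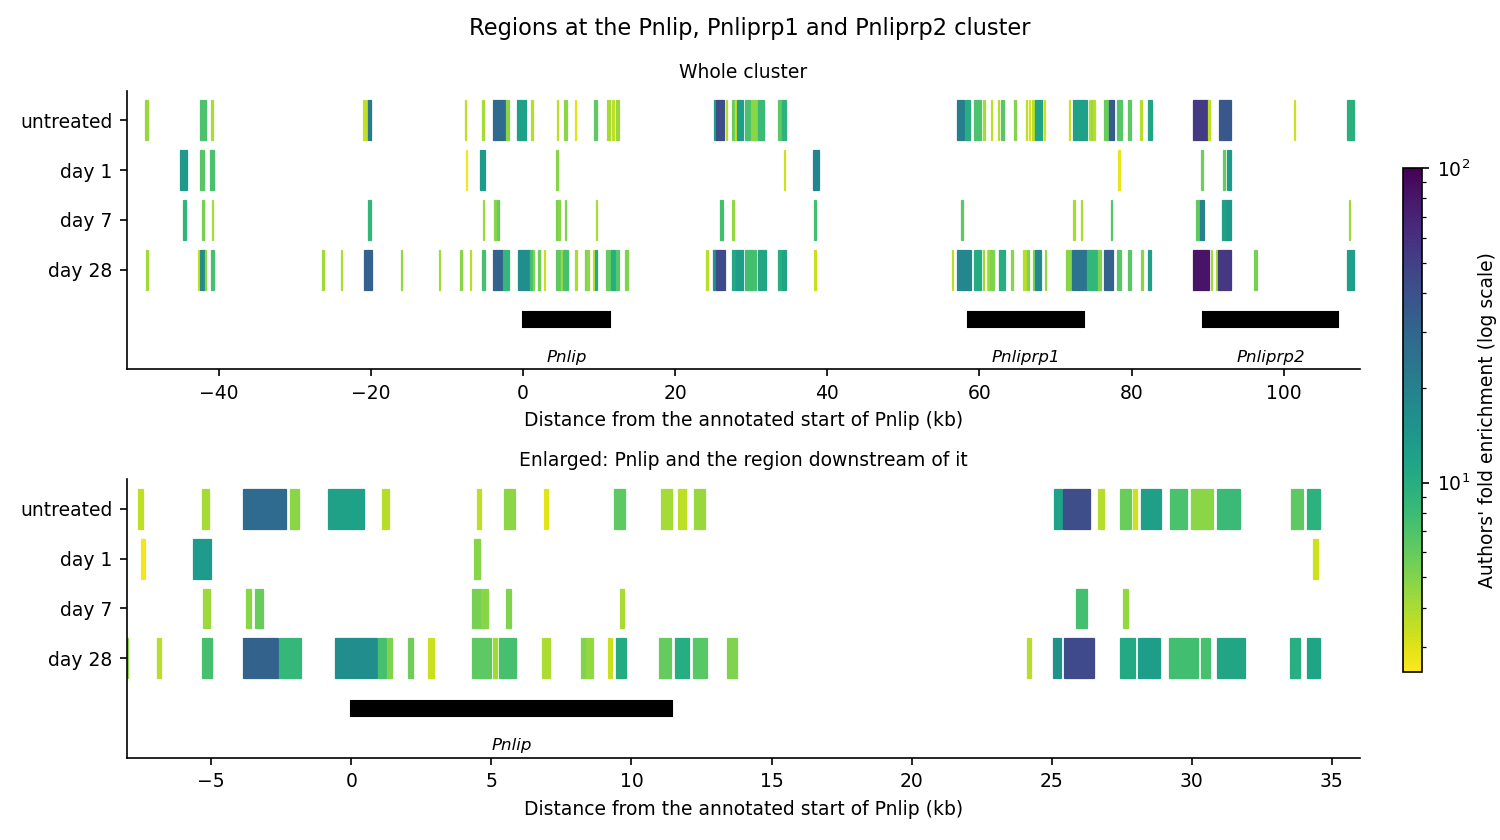
Regions of the Pnlip, Pnliprp1 and Pnliprp2 cluster in the 4 lists, by distance from the Pnlip start in kb, coloured by the authors' fold (log scale), with gene spans in black. The day 28 row holds most regions of the untreated row (53 of 59 untreated places of all 5 genes), and 2 regions of the day 1 row, both outside the gene spans, are missing from the untreated row.

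**Figure D4:**
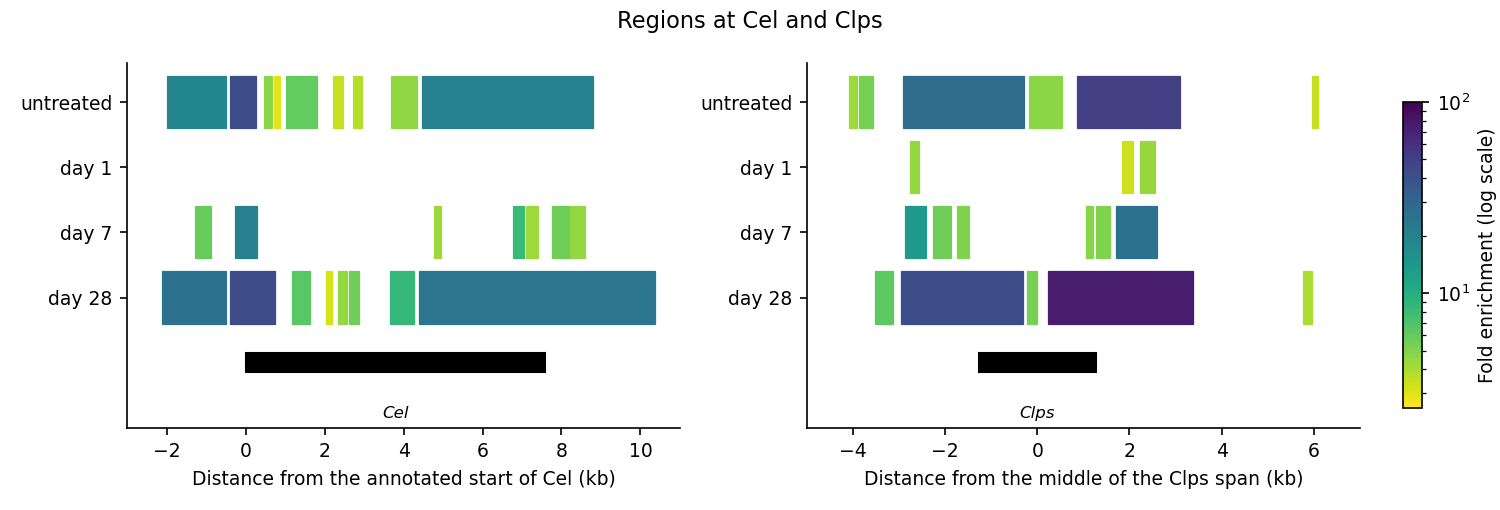
Regions at Cel, by distance from its start, and at Clps, by distance from the middle of its span, in kb, coloured by the authors' fold (log scale), with gene spans in black. Cel is empty on day 1, and the wide untreated regions of both genes appear as short pieces on day 7 and wide again on day 28.

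Overlapping regions of the 4 lists were also merged, which gave 87 places, 59 of them in the untreated list. The most frequent course was present in untreated epithelium, absent on days 1 and 7 and present on day 28, with 30 places. A further 13 were missing on day 1 alone, 26 were present on day 28 alone and 8 were present in all 4 lists. The first of these courses was followed by 5.19% of all 223972 merged places of the series, missing on day 1 alone by 4.77%, present on day 28 alone by 5.02% and presence in all lists by 26.7%. Of the 20 places with an untreated relative enrichment of at least 1, 5 had a peak on day 1, 14 on day 7 and 20 on day 28. The number with a relative enrichment of at least 1 was 0 on day 1, 3 on day 7 and 19 on day 28. The 3 of day 7 were at the starts of Pnliprp2 and Cel and at the high-coordinate end of Clps. The 20 places were chosen by a high untreated value, and the same counts over all merged places of that strength are not given here.

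Relative enrichment on day 7 was below that of untreated epithelium in all 21 places that both lists held. The medians were 0.325 on day 7 and 2.56 in untreated epithelium, and the unscaled fold was lower in 17 of the 21. The same counts over all merged places are not given here. Between day 28 and untreated epithelium 53 places were shared, with median relative enrichments of 0.802 on day 28 and 0.711 in untreated epithelium. Of these, 22 were higher and 31 lower on day 28 after scaling, while the unscaled fold was higher in 49. No direction can therefore be given for this pair. In the 20 strong places the summits of day 28 and untreated epithelium lay a median of 29 bp apart, and at most 193 bp. Strong places shared with untreated epithelium numbered 5 on day 1 and 14 on day 7. Their summits lay a median of 59 and 60 bp apart, and at most 601 and 590 bp.

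The 8 places seen in every list were 4 at Pnlip, 2 at Pnliprp2 and 2 at Clps, and Cel and Pnliprp1 had none. Those at Pnliprp2 and Clps were the strong regions given above. Those at Pnlip were weak in untreated epithelium, between 3.62 and 7.08 fold, and lay 42119 bp, 40904 bp and 5227 bp before the start and 4508 bp inside the gene. The one 5227 bp before the start had 4.12 fold in untreated epithelium, 13.4 fold on day 1, 4.30 fold on day 7 and 7.38 fold on day 28. Its relative enrichment was 0.744 (0.584 to 0.934) on day 1 and 0.421 (0.229 to 0.682) in untreated epithelium, and the counting intervals overlapped. It was the single place of the 11 held by both lists with a higher relative value on day 1. The unscaled fold was higher on day 1 in 3 of these 11. Neither count is set beside a share over all merged places that both lists held, which is not given here.

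Both regions gained on day 1 lay between genes of the chromosome 19 cluster or before it. One was 20138 bp before the Pnliprp1 start, at chr19:58708512-58709286, with 18.6 fold, the highest value of any lipase gene region in the day 1 list. It had no untreated peak, 7.52 fold on day 7 and 3.41 fold on day 28. The other was 44482 bp before the Pnlip start, at chr19:58625339-58626280, with 13.7 fold on day 1, 9.13 fold on day 7 and no peak on day 28 or in untreated epithelium. These were among the strongest regions of the locus when the enzyme genes themselves held few peaks. Their place in the lists rests on the nearest-gene rule, and a nearest gene need not be the gene that a region acts on. With genes of any type counted, neither region was assigned to a lipase gene.

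The 27 regions gained on day 28 were weak, between 3.12 and 6.24 fold with a median of 4.26, against a lowest fold of 2.84 in that list. Pnlip had 15 of them, Pnliprp1 7, Pnliprp2 3, Cel 1 and Clps 1. The highest was at Clps, 2107 bp beyond the low-coordinate end (6.24 fold). The next lay inside Pnlip (5.68 fold) and inside Pnliprp2 (5.39 fold), followed by 3 regions of 5.11 fold each, beyond the Pnliprp1 end, beyond the Pnlip end and inside Pnlip. Of the 27, 20 lay within 1 kb of an untreated peak, and the median distance was 497 bp. Only 1 of the 27 was present on day 1 or day 7, the region before Pnliprp1 described above. A relative enrichment of at least 0.199, the lowest in the untreated list, was reached by 26.

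Genes next to the lipase genes had lost shares near those of all regions on days 1 and 7. The nearest protein-coding neighbours, Ccdc172, 1700019N19Rik, Ralgds, Gtf3c5, Clpsl2 and Lhfpl5, of which 1700019N19Rik had no untreated region, had together lost 20 of 48 untreated regions on day 1 (41.7%, 27.6 to 56.8), 13 on day 7 (27.1%, 15.3 to 41.9) and 8 on day 28 (16.7%, 7.48 to 30.2). The shares of all regions were 37.1%, 31.8% and 26.7%. Ralgds and Gtf3c5, which flank Cel on either side, kept 15 of 23 and 4 of 10 regions on day 1, when Cel kept 0 of 9.

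Other secretory enzyme genes had also lost most of their untreated regions on day 1 and few on day 28, and differed from each other on day 7. Protease genes lost 60 of 74 untreated regions on day 1, 39 on day 7 and 6 on day 28, and held 78 regions in the day 7 list. Prss2, an anionic trypsinogen gene, lost 15 of 19 on day 1, and the elastase genes Cela2a and Cela3b lost 15 of 17 and 15 of 16. Ctrb1, the chymotrypsinogen B gene, kept 3 of 5 on day 1. Of its 10 day 28 regions 5 were gained (50.0%, 18.7 to 81.3), against 23.0% of all linked regions. Carboxypeptidase, amylase and zymogen granule genes lost 116 of 128 on day 1, 99 on day 7 and 18 on day 28, with 21 of 21 lost at Gp2, a granule membrane protein gene, and 15 of 15 at Amy2b, an amylase gene. On day 7 the lipase genes had lost 71.6% of their regions (60.0 to 81.5), the proteases 52.7% (40.8 to 64.4) and the carboxypeptidase, amylase and granule genes 77.3% (69.1 to 84.3). Genes of acinar transcription factors lost 112 of 153 on day 1, 75 on day 7 and 24 on day 28. At Nr5a2, 36 of 47 were lost on day 1 and 10 on day 28, and at Gata4, the gene of a GATA factor, 35 of 44 and 6. At Ptf1a, which encodes PTF1A of the PTF1 complex, 14 of 17 were lost on day 1 and 1 on day 28, and at Rbpjl 8 of 14 and 1. These lists are set beside the lipase genes without a test of the difference, as regions of 1 library are not replicates.

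Other lipase and phospholipase genes, listed with the related genes Clpsl2, Gpihbp1 and Lmf1, were mixed. The 15 genes of this list lost 64 of 124 untreated regions on day 1 (51.6%, against 37.1% of all regions). They lost 51 on day 7 (41.1%, against 31.8%) and 31 on day 28. The day 28 share of 25.0% was near the 26.7% of all regions. Pla2g1b, the pancreatic phospholipase A2 gene, lost 9 of 13 on day 1 and 0 on day 28, and Lipc, the hepatic lipase gene, lost 33 of 41 and 14. Lipa, which encodes the lysosomal acid lipase, and Pla1a, a phospholipase A1 gene, lost 0 of 4 and 0 of 10 on day 1, and Lpl, the lipoprotein lipase gene, 4 of 13. The day 1 intervals of Lipa (0 to 60.2) and Lpl (9.09 to 61.4) included the 37.1% of all regions. That of Pla1a (0 to 30.9) lay below it, and those of Pla2g1b (38.6 to 90.9) and Lipc (65.1 to 91.2) lay above it. Lipg, the endothelial lipase gene, lost 5 of 18 on day 1 (27.8%, 9.7 to 53.5), an interval that also included 37.1%. Of its 26 day 1 regions 13 were gained (50.0%), near the 49.9% of all linked regions. Lipi held no region in any list, and Lipf, the gastric lipase gene, held 1 on day 1 alone.

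**Figure D5:**
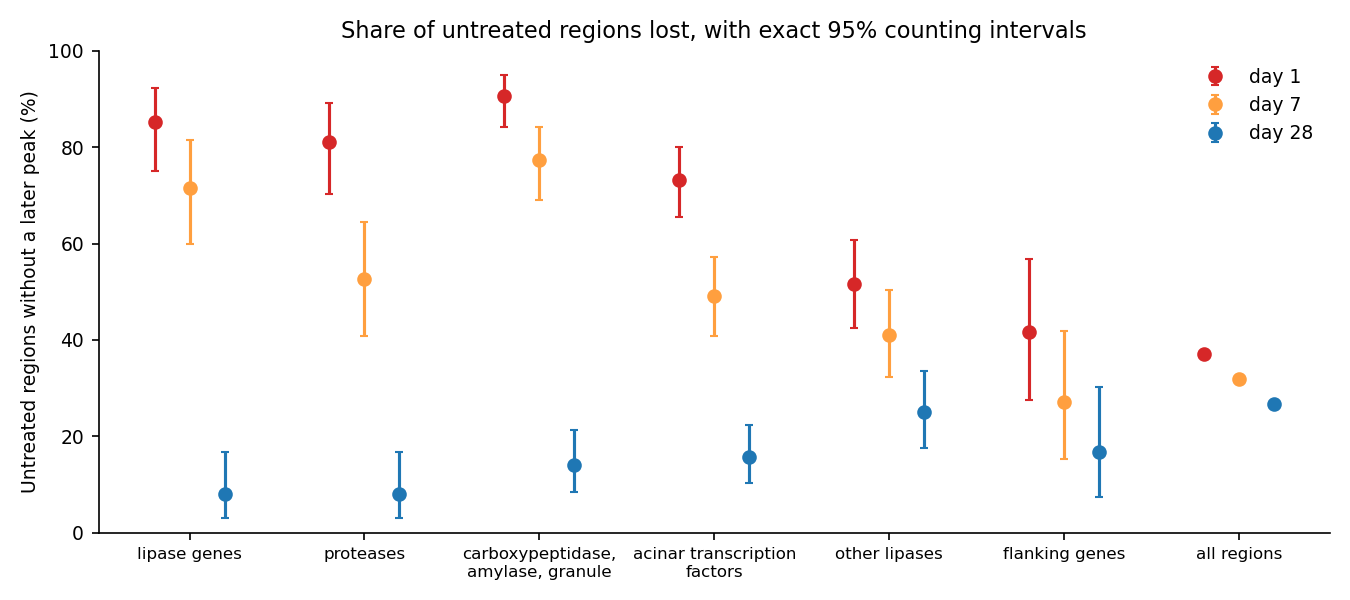
Percent of untreated regions without a peak on days 1, 7 and 28 for the lipase genes, comparison lists, neighbouring genes and all linked regions, with exact 95% counting intervals. The secretory enzyme lists lie above all regions on days 1 and 7 and below them on day 28.

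Among 7941 genes with at least 5 untreated regions, those nearest to the summed lipase genes in the shares kept on days 1, 7 and 28 included Bmpr1b, Brca1, Plch1, Rnf128, Rpap2, Arhgef26, Kng2, Cpa1 and Cuzd1. The distances of these genes ran from 0.06 to 0.0864 over the 3 shares. Cpa1, a carboxypeptidase gene, kept 1 of 12 regions on day 1, 4 on day 7 and 11 on day 28. Cuzd1, a zymogen granule gene, kept 2, 3 and 14 of 15. Bmpr1b, a bone morphogenetic protein receptor gene, kept 6, 8 and 27 of 29. Brca1, Plch1, Rnf128, Rpap2 and Kng2 had 7 regions each, so few shares were possible for them.

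Peak counts at markers of other pancreatic cells also differed between the libraries, more in some marker lists than in others. On day 1 the fibroblast and stellate genes had lost 5.13% of untreated regions, the leukocyte genes 46.7% and the ductal genes 52.75%. The endothelial genes had lost 55.4% and the endocrine genes 27.3%, against 37.1% of all regions. The leukocyte (21.3 to 73.4) and endocrine (6.02 to 61.0) intervals included that share. The 6 fibroblast and stellate genes had 78 regions in untreated epithelium, 123 on day 1, 98 on day 7 and 83 on day 28. Their summed relative enrichment was 55.8, 103, 71.6 and 57.2, with Lum at 0 regions in the untreated list alone. The 7 leukocyte genes had 15, 26, 15 and 11 regions and sums of 6.77, 13.8, 7.04 and 3.84, with Adgre1 at 0 in every list and Cd3e and Lyz2 at 0 in the untreated and day 1 lists, and Lyz2 also on day 28. The 7 ductal genes had 91, 70, 83 and 86 regions and sums of 95.9, 36.9, 46.9 and 84.4, each gene with a region in every list. The 6 endothelial genes had 92, 91, 105 and 61 regions and sums of 69.8, 64.0, 55.0 and 44.2, and the 6 endocrine genes 11, 12, 14 and 14 regions and sums of 6.66, 5.41, 6.73 and 7.60, with Ins1 at 0 in the untreated and day 1 lists and Ins2 at 0 on day 28. The summed value of the lipase genes was 89.8, 5.75, 15.7 and 81.0. These sums add called peaks only. The lowest value of a list and the median used for scaling differed between the lists, which limits a comparison of the sums. The part of the other cell types in the lipase gene result was not tested.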

How the data were processed

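Peak lists of 4 ATAC-seq libraries were used, 1 per group, with groups taken from the sample titles. Per the submitters' processing notes, cutadapt, Bowtie2 2.2.6, SAMtools, MACS2 2.1.0.20150731, deepTools and GRCm38 (mm10) were used. What each tool did, how reads were filtered and whether cut sites were shifted is not given in the sources used here, and its effect on these values was not tested. The authors' fold enrichment is a ratio, their −log10 p and −log10 q describe the same peaks, and the deposited score is 10 times the −log10 q without decimals. The few peaks on Y were left out. Lists held 140286, 164684, 145337 and 130149 peaks on chromosomes 1 to 19 and X (untreated, days 1, 7 and 28).

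Depth is known only through the pileups. Taking fold as the ratio of (pileup + 1) to (background + 1), a single background per list (5.07, 5.35, 2.72 and 2.52) made 100% of pileups whole within 0.05, and the lowest pileups were 14, 14, 10 and 9. Intervals are exact binomial (Clopper-Pearson) or Poisson at 95% and cover counting error only. Gene spans came from RefSeq GRCm38.p6, with ties going to the shorter span. Overlaps were checked with bedtools 2.31.1 and on simulated lists. Python 3.11.15, pandas 2.3.3 and scipy 1.17.1 were used.

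The genes, lists and settings were chosen with earlier results of these data known. Named were all 5 genes, their strongest untreated and day 28 regions, regions in every list, start regions, the 5 strongest day 28 gains and, from other lists, genes with most lost or gained regions. Neighbouring genes, further strong regions, single genes of the comparison lists and merged places were chosen after their values were seen. The planned PTF1 motif search was run in the same orientation. Alternatives were a minimum −log10 q of 5, an overlap of at least 0.5 of the shorter interval, links within 10 kb, a common enrichment floor and genes of any type. Some genes that the naming rule selects are not reported here.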

Additional observations from a re-analysis of the deposited data

How the results depend on the processing

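Of 30 recomputed shares of lost and gained regions at the lipase genes, 28 stayed within the counting interval of the value reported. Both exceptions concern the gained share at day 1, against 13.3% of 15 as reported. It was 0% of 10 regions (0 to 30.9) with links within 10 kb, where both distant regions left the set by construction. It was also 0% of 10 with the nearest gene of any type, where both left because a gene that is not protein-coding lay nearer to them. The lost share ran from 86.0% to 89.2% at day 1, from 71.6% to 73.1% at day 7 and from 8.11% to 16.2% at day 28 over the alternatives, the last with an overlap of at least 0.5 of the shorter interval. The gained share at day 28 ran from 26.4% with a minimum −log10 q of 5, where 18.5% of all regions were gained, to 36.5%. No paired analysis was possible because each group has 1 library. The lowest fold in a list was higher on days 7 and 28 (2.95 and 2.84) than in the untreated list (2.47), but on the relative scale the lowest value was highest in the untreated list (0.199, against 0.129 on day 7 and 0.160 on day 28), so the list in which weak regions are hardest to detect depends on the scale.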
